A study of Drosophila melanogaster and Drosophila simulans and Drosophila yakuba with 24 samples.

Results

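The comparison of eviscerated abdomen with thorax rested on 6 of the 24 samples of the series, 3 RNA-seq libraries of each body segment, which were taken by their labels and by the matching columns of the count table. Both segments came from mated wild-type Canton S females aged 10 days, which carried no transgene and no mutant allele, and each library held tissue pooled from 25 to 100 flies. Thoraces were taken from frozen flies, whereas abdomens were opened in cold saline and their inner organs removed, so that segment and handling cannot be told apart. The 3 ovary libraries of the same strain and age served to separate genes that are also abundant in ovary, and the 3 head libraries entered the fit as a further measure of the spread between replicates. Total RNA was sequenced after depletion of ribosomal RNA.

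In the adult fly the thorax bears the legs and wings and is filled mostly by flight muscle. It also holds the fused thoracic and abdominal ganglia, in which the neurons that serve the abdomen lie too, and the front of the gut with the proventriculus and the salivary glands. The wall of the abdomen carries thin sheets of muscle, fat body, which stores lipid and glycogen and secretes yolk and immune proteins, and oenocytes, which make the hydrocarbons that waterproof the cuticle. In females the abdomen also encloses the ovaries, the reproductive tract, the rest of the gut and the Malpighian tubules, which evisceration is meant to take out. In these bulk libraries fewer cells of a type and less RNA per cell cannot be told apart.

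Counts over all genes summed to between 8087981 and 13630001 in the thorax libraries, between 7884586 and 11600876 in abdomen and between 22247599 and 32498809 in ovary. Levels are given below as counts per 1000000 scaled by TMM factors (CPM), in the order of replicates 1, 2 and 3, and fold changes are abdomen minus thorax on the log2 scale. Of 13898 genes, 11188 had enough counts to be tested by edgeR's quasi-likelihood test, with p-values adjusted by Benjamini-Hochberg over all of them and a threshold of 0.05. By this test 3999 genes (35.7% of those tested) were higher in abdomen and 4068 genes (36.4%) were lower, and 3121 did not pass. At least 8-fold differences were seen for 675 of the higher and 1235 of the lower genes. Of the 4068 lower genes, 2085 (51.3%) had a mean head level at or above their mean thorax level. All 3 abdomen libraries lay above all 3 thorax libraries for 34.8% of the genes tested and below them for 36.9%. Abdomen replicate 1 and thorax replicate 3 stood apart from their groups: the chi-square statistic per degree of freedom over genes was 117 and 87.9 between abdomen replicate 1 and the others but 13.0 between replicates 2 and 3, and it was 47.7 and 37.0 between thorax replicate 3 and the others but 13.6 between replicates 1 and 2. Where leaving out 1 library moved the printed fold change of a gene by over 1.5 times, the value without that library is given too.

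The split of the calls moved with the scaling. With TMM factors 49.6% of the called genes were higher in abdomen, against 60.7% when counts were scaled by library size alone and 29.0% or 30.4% when limma was run on the authors' RPKM values with 0.1 or 1 added before the log2. The median log2 fold change over all genes tested was -0.06, and it shifted by 0.38 with library size alone, by -0.21 with RLE factors, by -0.34 with DESeq2, by -0.57 and -0.26 with the RPKM values, by 0.25 when only the 6 libraries of abdomen and thorax were fitted and by -0.10 with no filter on low counts. Genes whose direction turned with one of these settings are named with its value. Of 39 lists of tissue markers and gene families, 10 had more members higher in abdomen and 24 had more members lower. The counts of each list below are to be read beside the shares over all genes tested, 35.7% higher and 36.4% lower. Statements that libraries did not overlap stand beside 34.8% of all genes with abdomen above and 36.9% with abdomen below.

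**Figure D1:**
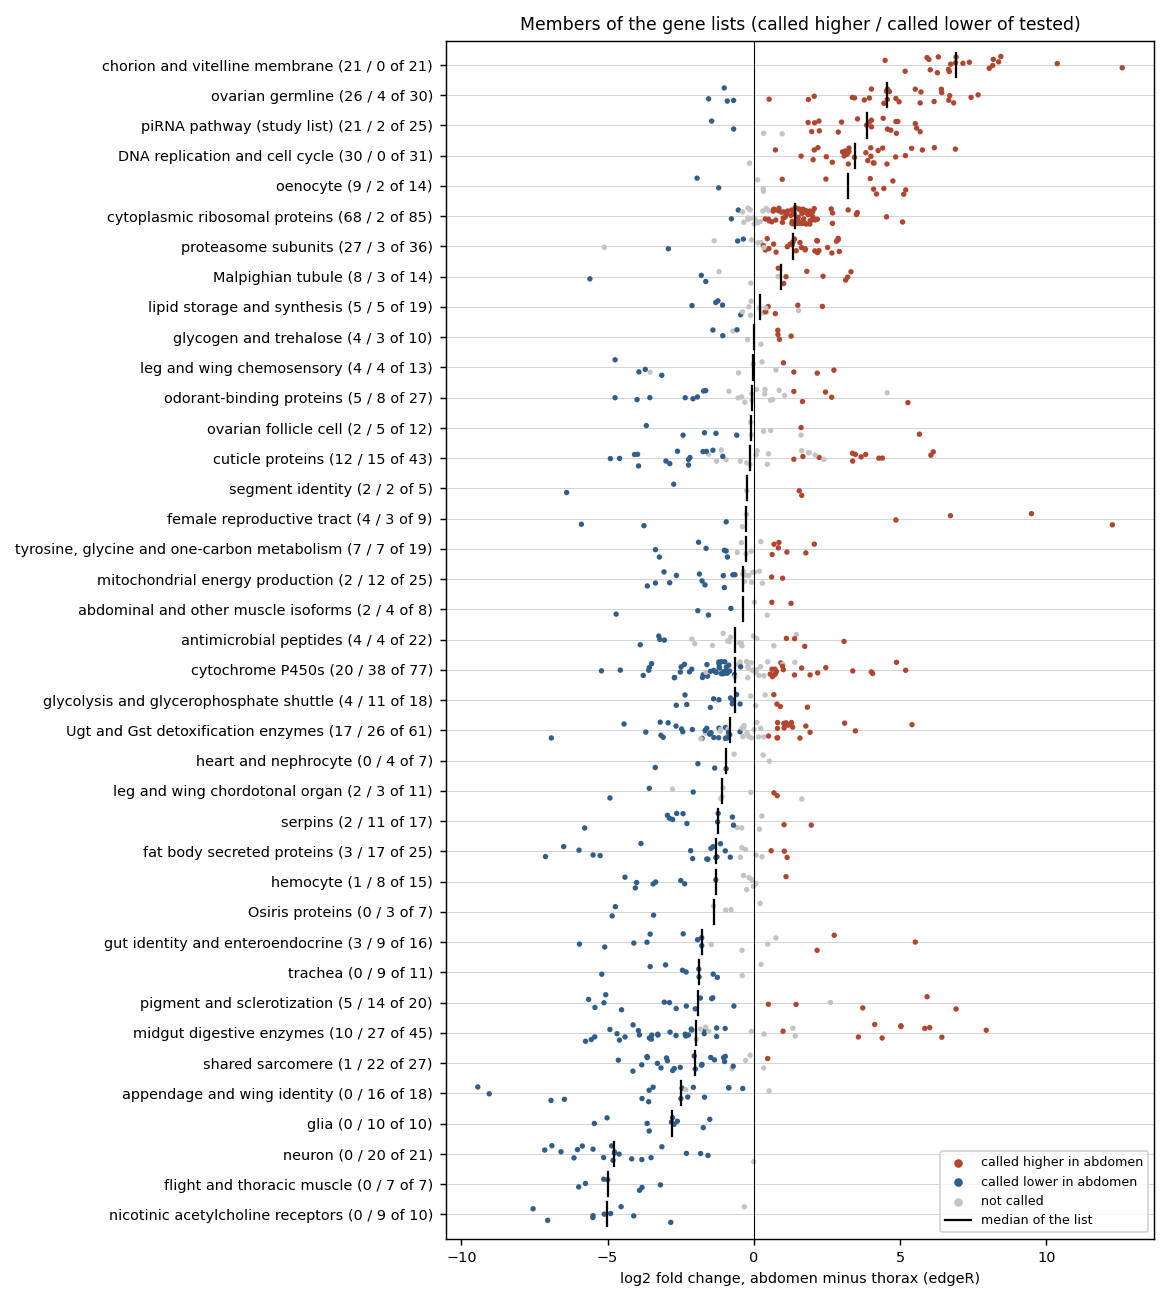
Log2 fold change of abdomen over thorax (x axis) for every tested member of the 39 gene lists (rows, ordered by list median). Points are genes, coloured by their call in edgeR's quasi-likelihood test, and black bars are list medians, which run from -5.01 for the nicotinic acetylcholine receptors to 6.90 for the chorion and vitelline membrane genes. Each row label gives the members called higher and lower of those tested.

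The labels were checked first against the Hox genes, which give each segment of the body its identity. Scr, which acts in the first thoracic segment and the mouthparts, was at 0.0913, 0.321 and 0.12 CPM in abdomen and 16.4, 18.7 and 14.2 CPM in thorax (log2 fold change -6.40, standard error 0.41, edgeR adjusted p = 1.89e-08), and without abdomen replicate 2, which held 4 of its 6 abdomen reads, the CPM ratio was 161-fold (44.3 to 1332). Antp, which acts in the thorax, was at 4.29, 8.10 and 6.34 CPM in abdomen and 34.6, 45.7 and 45.4 CPM in thorax (log2 fold change -2.74, standard error 0.29, edgeR adjusted p = 1.86e-06). The libraries of the segments did not overlap for either gene, as for 36.9% of all genes in this direction. Ubx, which acts at the border of thorax and abdomen, was higher in abdomen, at 26.1, 32.5 and 38.6 CPM against 12.1, 11.0 and 9.85 CPM (log2 fold change 1.55, standard error 0.41, edgeR adjusted p = 0.00388), and so was abd-A, an abdominal Hox gene, at 30.5, 44 and 40.9 CPM against 11.0, 17.0 and 8.74 CPM (log2 fold change 1.64, standard error 0.36, edgeR adjusted p = 0.001). Abd-B, which acts in the last abdominal segments, did not pass the test, with 6.57, 5.45 and 5.86 CPM in abdomen and 5.97, 8.76 and 6.38 CPM in thorax (log2 fold change -0.24, edgeR adjusted p = 0.661), and its value was 0.14 with library size alone. None of the 5 genes averaged more than 3.82 CPM in ovary.

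Muscle genes were among the clearest marks of the thorax. All 7 genes of the flight and thoracic muscle list were lower in abdomen, against 36.4% of all genes tested, at a median log2 fold change of -5.00. Their summed level was 408 to 520.1 CPM in the abdomen libraries and 5423 to 7379 CPM in the thorax libraries. Act88F, the actin of the flight muscles, was at 4.38, 2.89 and 6.10 CPM in abdomen and 148, 172 and 98.3 CPM in thorax (log2 fold change -5.00, standard error 0.28, edgeR adjusted p = 6.01e-09). For fln, the thick filament protein flightin, the values were 0.822, 0.481 and 1.55 CPM and 79.2, 62.7 and 29.7 CPM (log2 fold change -5.99, standard error 0.47, edgeR adjusted p = 1.06e-07). TpnC4, a troponin C of flight muscle, reached 1.28, 0.722 and 1.79 CPM in abdomen and 62.5, 44.7 and 21.1 CPM in thorax (log2 fold change -5.13, standard error 0.48, edgeR adjusted p = 5.48e-07). Every thorax library lay far above every abdomen library for these 3 genes. Act79B, an actin of tubular muscle, was lower too, at 21.7, 11.4 and 8.25 CPM against 854, 825 and 569.6 CPM (log2 fold change -5.76, standard error 0.50, edgeR adjusted p = 2.62e-07). Mf, Zasp66 and Strn-Mlck, genes of the thick filament, the Z disc and a myosin-linked kinase, had log2 fold changes of -3.82, -3.91 and -3.19. The levels of the list in ovary were at most 19.2 CPM on average.

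Genes of the sarcomere that all muscles share were lower in abdomen as well, though by less. Of 27 tested genes, 22 were lower and 1 was higher, at a median log2 fold change of -2.0. Mhc, the muscle myosin heavy chain, was at 195, 230.3 and 224 CPM in abdomen and 2241, 2161 and 1458 CPM in thorax (log2 fold change -3.17, standard error 0.21, edgeR adjusted p = 1.95e-08). For bt, the giant protein projectin, the values were 163, 314 and 277 CPM and 4092, 4923 and 4210.3 CPM (log2 fold change -4.13, standard error 0.26, edgeR adjusted p = 1.41e-08). For SERCA, the calcium pump of the sarcoplasmic reticulum, they were 465, 460.0 and 488 CPM and 3673, 3664 and 1968 CPM (log2 fold change -2.72, standard error 0.23, edgeR adjusted p = 1.94e-07). In each of these the libraries of the segments lay far apart. sls, which encodes the titin-like protein Sallimus, was at 2802, 7905 and 4266 CPM and 8022, 9777 and 12148 CPM and passed narrowly (log2 fold change -1.0, standard error 0.31, edgeR adjusted p = 0.0115). It did not pass without abdomen replicate 3, where its log2 fold change was -0.84 (edgeR adjusted p = 0.0574). Nor did it pass with library size alone (edgeR adjusted p = 0.101) or when only abdomen and thorax were fitted (edgeR adjusted p = 0.056). The gene that went the other way was cpa, a subunit of the actin capping protein of all cells, at 74.6, 80.0 and 83.7 CPM against 50.3, 51.9 and 69.8 CPM (log2 fold change 0.47, standard error 0.16, edgeR adjusted p = 0.0166). Its call was lost without thorax replicate 1 (0.39) or 2 (0.41), and its value was -0.19 and -0.18 with RPKM values.

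Among the other muscle and cytoplasmic isoforms the direction depended on the gene. Act57B was lower in abdomen, at 636, 741 and 874 CPM against 1357, 1338 and 1185 CPM (log2 fold change -0.79, standard error 0.17, edgeR adjusted p = 0.000992), and so was Act87E, at 218, 240.3 and 265 CPM against 1028, 965 and 735 CPM (log2 fold change -1.92, standard error 0.19, edgeR adjusted p = 7.42e-07). Both encode actins of larval and adult muscle. TpnC41C, a further troponin C, was at 4.29, 2.89 and 1.55 CPM and 97.4, 86.9 and 49.0 CPM (log2 fold change -4.71, standard error 0.36, edgeR adjusted p = 8.07e-08). Act5C, the actin of the cytoskeleton in every cell, was instead at 2878, 3997 and 4734 CPM in abdomen and 2708, 2258 and 2610.1 CPM in thorax (log2 fold change 0.62, standard error 0.19, edgeR adjusted p = 0.011). Its call was lost without thorax replicate 2 (0.54) and its direction turned to -0.088 with RPKM values. TpnC47D, at 8.49, 4.41 and 7.89 CPM against 3.37, 3.31 and 1.80 CPM, was called higher (log2 fold change 1.27, standard error 0.50, edgeR adjusted p = 0.0345), but the call did not hold without abdomen replicate 1 or 3 or without any one thorax replicate, where its log2 fold change was between 1.05 and 1.41. Per length, by the mean RPKM of the authors' table, Act5C stood at 397 in thorax, Act87E at 238, Act57B at 238 and Act88F at 39.8, and in abdomen they stood at 382, 39.1, 86.0 and 0.792.

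Enzymes that feed muscle contraction followed the thorax in part. Of 18 genes of glycolysis and the glycerophosphate shuttle, 11 were lower in abdomen and 4 higher, with a median of -0.66. Argk1, the arginine kinase that buffers ATP in muscle, was at 281, 189 and 219 CPM in abdomen and 1675, 1585 and 1071 CPM in thorax (log2 fold change -2.65, standard error 0.22, edgeR adjusted p = 1.47e-07). Ald1, aldolase, was at 744, 589.9 and 835 CPM and 4585, 4279 and 2225 CPM (log2 fold change -2.35, standard error 0.25, edgeR adjusted p = 1.91e-06). The 4 that went the other way were Gapdh2, Tpi, Pglym78 and Hex-C. Of these the hexokinase gene Hex-C differed most, at 329, 155.7 and 159.6 CPM in abdomen and 65.1, 59.9 and 56.2 CPM in thorax (log2 fold change 1.83, standard error 0.31, edgeR adjusted p = 0.000142). It was the only one of the 4 called with RPKM values. Tpi, triose phosphate isomerase, moved from 0.79 to 0.53 on the log2 scale without abdomen replicate 1 but kept its call. The count of lower genes was 7 without abdomen replicate 3 and 6 with library size alone.

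Mitochondrial genes showed the same mixture. Of 25 genes 12 were lower in abdomen (48.0%, against 36.4% of all genes tested) and 2 were higher, with a median of -0.38. With RPKM values 19 were lower and 0 higher. Ogdh, a subunit of the oxoglutarate dehydrogenase of the citric acid cycle, was at 196, 169 and 172 CPM in abdomen and 2769, 2573 and 1364 CPM in thorax (log2 fold change -3.64, standard error 0.25, edgeR adjusted p = 3.37e-08). mAcon1, mitochondrial aconitase, was at 199, 205 and 207 CPM and 2628, 2409.8 and 1263 CPM (log2 fold change -3.36, standard error 0.25, edgeR adjusted p = 6.44e-08). These citric acid cycle genes differed more than sesB, the carrier that exchanges ADP and ATP, which was at 1293, 1168 and 1204 CPM and 3076, 2659 and 1815 CPM (log2 fold change -1.04, standard error 0.20, edgeR adjusted p = 0.000332). Higher in abdomen were ATPsynB, a subunit of ATP synthase (log2 fold change 0.98, standard error 0.25, edgeR adjusted p = 0.00272), and Idh, isocitrate dehydrogenase (log2 fold change 0.61, standard error 0.23, edgeR adjusted p = 0.0303). The call of Idh was lost without abdomen replicate 1 (0.27) or thorax replicate 3 (0.46), its value was -0.11 with RPKM values, and neither gene was called there.

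Nervous tissue was a second mark of the thorax. Of 21 neuronal genes 20 were lower in abdomen, at a median log2 fold change of -4.77. Their summed level was 117 to 142 CPM in abdomen, 1372 to 1961 CPM in thorax and 9506 to 11826 CPM in head. Syt1, the calcium sensor of synaptic vesicles, was at 2.92, 2.17 and 1.67 CPM in abdomen and 129.7, 173 and 184 CPM in thorax (log2 fold change -6.15, standard error 0.29, edgeR adjusted p = 1.94e-09). VGlut, the vesicular transporter of glutamate, the transmitter of fly motor neurons, was at 1.28, 0.481 and 0.837 CPM and 86.8, 106 and 117 CPM (log2 fold change -6.91, standard error 0.31, edgeR adjusted p = 1.56e-09). Gad1, which makes the inhibitory transmitter GABA, was at 2.74, 1.12 and 1.08 CPM and 91.1, 104 and 96.9 CPM (log2 fold change -5.86, standard error 0.31, edgeR adjusted p = 3.55e-09, and -6.45 on the log2 scale without abdomen replicate 1). These synaptic genes were close to 0 in abdomen, and in ovary none of the 3 averaged more than 0.0116 CPM. elav, an RNA-binding protein of all neurons, differed less, at 29.9, 39.6 and 45.3 CPM in abdomen and 103, 128 and 109 CPM in thorax (log2 fold change -1.57, standard error 0.18, edgeR adjusted p = 3.48e-06), and stood at 5.59 CPM in ovary. The gene that did not pass was Trhn, the neuronal tryptophan hydroxylase, at 7.21, 1.28 and 1.55 CPM and 2.89, 3.02 and 4.30 CPM (edgeR adjusted p = 0.996). It was called lower without abdomen replicate 1 (-1.26, edgeR adjusted p = 0.032) and was positive without abdomen replicate 2 (0.40) or 3 (0.39) and without thorax replicate 3 (0.19). Trhn is named because it was the exception.

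Receptors and glia showed the same direction as the neuronal genes. Of 10 nicotinic acetylcholine receptor subunits, which carry fast excitation between fly neurons, 9 were lower in abdomen, with a median of -5.01. nAChRalpha7 was at 0, 0.241 and 0 CPM in abdomen and 13.8, 15.8 and 27.6 CPM in thorax, a CPM ratio of 192-fold (exact 95% interval 65.2 to 933). The ratio was 126-fold (42.7 to 611) without abdomen replicate 1, and without abdomen replicate 2, which held all 3 of its abdomen reads, it was at least 116-fold lower in abdomen. nAChRalpha4 did not pass, at 16.5, 18.3 and 16.4 CPM against 12.9, 20.1 and 31.6 CPM, and turned to 0.048 without thorax replicate 3 and to 0.023 with library size alone, while it was called lower without thorax replicate 1 (-0.59). All 10 glial genes were lower in abdomen, with a median of -2.80. repo, the transcription factor that marks glia, was at 4.84, 3.69 and 4.06 CPM and 26.5, 28.5 and 28.5 CPM (log2 fold change -2.73, standard error 0.18, edgeR adjusted p = 2.24e-08). Gs2, the glial glutamine synthetase, was at 276, 213 and 232 CPM and 1771, 1821 and 1364 CPM (log2 fold change -2.78, standard error 0.20, edgeR adjusted p = 4.51e-08).

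The 15 genes with the largest fitted difference towards thorax, among those with at least 20 CPM there, averaged at most 3.66 CPM in abdomen, with the exception of CG34220. CG34220 held 9.64, 9.97 and 9.23% of all reads counted in the thorax libraries, more than any other gene, and its level was 48.4, 41.9 and 44 CPM in abdomen and 126645, 129639 and 103609 CPM in thorax (log2 fold change -11.39, standard error 0.35, edgeR adjusted p = 2.03e-10). Muc68D, a mucin gene, was at 0.548, 0.16 and 0.12 CPM in abdomen and 24382, 30556 and 26513 CPM in thorax (log2 fold change -16.52, standard error 1.00, edgeR adjusted p = 1.11e-08). CG34324 was at 0.457, 0.16 and 0.12 CPM and 21788, 19737 and 15772 CPM (log2 fold change -16.17, standard error 0.60, edgeR adjusted p = 7.88e-10). Of the 9 and 8 abdomen reads of Muc68D and CG34324, 3 and 3 remained without abdomen replicate 1, at CPM ratios of 188959-fold (64658 to 916281) and 135248-fold (46279 to 655832). In head none of the 15 averaged more than 53.6 CPM and in ovary none more than 3.69 CPM, whereas the lowest of them averaged 26.8 CPM in thorax. The others without a name of their own were CG3906, CG31077, CG9988, CG14125, CG10725, CG43673, CG14645 and CG6839, with thorax means from 33.0 CPM for CG9988 to 6038 CPM for CG14645. CG9988 had no read in the abdomen libraries and was at least 362-fold lower there, taking 3 counts over the libraries of a segment as the floor. With abdomen replicate 1 or 2 left out, and so with less depth behind the floor, this bound was 237-fold or 220.0-fold. Named genes in this set were Cht8, a chitinase, Mco4, a multicopper oxidase, ara, a homeobox gene described with the appendage genes, and Akh. Akh encodes adipokinetic hormone, which the corpora cardiaca beside the proventriculus release to mobilize fat body stores, and it was at 0.0913, 0.0802 and 0 CPM in abdomen and 64.9, 68.1 and 37.6 CPM in thorax, a CPM ratio of 938-fold (exact 95% interval 259 to 7756).

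Digestive enzymes of the midgut were far more abundant in thorax than in abdomen. Their summed level was 44885 to 69554 CPM in the thorax libraries and 2172 to 5667 CPM in the abdomen libraries, a 16.9-fold difference of the means, and it was 144 to 197 CPM in ovary. Evisceration is meant to take out the gut that lies in the abdomen, and its part in this difference was not tested. Of 45 tested genes 27 were lower in abdomen and 10 were higher. Amy-p, an amylase, was at 467, 283 and 405 CPM in abdomen and 24501, 22110.1 and 15729.8 CPM in thorax (log2 fold change -5.76, standard error 0.43, edgeR adjusted p = 7.23e-08). Its near-identical copy Amy-d could share its reads. The trypsin gene betaTry was at 86.3, 27.7 and 58.1 CPM and 3243, 2848 and 2017 CPM (log2 fold change -5.56, standard error 0.75, edgeR adjusted p = 1.69e-05). Jon65Aiii, a serine protease of the Jonah family, was at 308, 49.7 and 121 CPM and 4648, 4138 and 2769.6 CPM (log2 fold change -4.59, standard error 0.79, edgeR adjusted p = 0.000143). Abdomen replicate 1 was the highest of the 3 abdomen libraries for each of these genes, yet it stayed far below thorax, and without it Jon65Aiii was at -5.50 on the log2 scale. Jon99Ciii differed by less, at 1035, 384 and 364 CPM and 3499.6, 3242 and 2318 CPM (log2 fold change -2.35, standard error 0.75, edgeR adjusted p = 0.0129). Its call was lost without abdomen replicate 3 (-2.02), while its value was -3.01 without abdomen replicate 1. Its copy Jon99Cii had nearly equal counts and could share its reads.

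A smaller group of digestive enzymes ran the other way. The 10 genes higher in abdomen were Jon25Biii, Jon44E, Jon65Ai, Jon65Aii, Jon66Ci, lambdaTry, thetaTry, zetaTry, mag and Mal-B2, and 9 of them were highest in abdomen replicate 1. Jon25Biii was at 239, 73.0 and 40.5 CPM in abdomen and 13.2, 0.487 and 2.78 CPM in thorax (log2 fold change 4.39, standard error 1.05, edgeR adjusted p = 0.00194). lambdaTry was at 22.1, 7.06 and 7.17 CPM and 0, 0.292 and 0.278 CPM (log2 fold change 6.01, standard error 1.00, edgeR adjusted p = 0.000109). mag, a lipase gene, was at 43.1, 23.5 and 9.44 CPM and 0.963, 0 and 1.53 CPM (log2 fold change 5.03, standard error 0.76, edgeR adjusted p = 4.46e-05). Their abdomen levels spread over several-fold between replicates but did not overlap those of thorax. Without abdomen replicate 1 the log2 fold changes of Jon25Biii, lambdaTry and mag were 3.33, 5.24 and 4.39. That of Jon25Biii was 6.30 without thorax replicate 1, that of lambdaTry 5.37 without thorax replicate 1, and that of mag 4.38 and 5.70 without thorax replicates 2 and 3, and the 3 genes kept their calls in each case. Without thorax replicate 2 lambdaTry had 2 thorax reads left and a CPM ratio of 108-fold (29.7 to 894). zetaTry had a single read in the 3 thorax libraries, and its CPM ratio was 301-fold (exact 95% interval 53.8 to 11943). It was 174-fold (30.7 to 6918) without abdomen replicate 1 and 190.3-fold (33.9 to 7538) without thorax replicate 2, and without thorax replicate 1, which held the read, it was at least 63.1-fold higher in abdomen. Jon65Ai, Jon66Ci and Jon44E had all of their few thorax reads in thorax replicate 1, so that the 2 other thorax libraries were at 0. Without abdomen replicate 1 Mal-B2, a maltase, moved from 1.00 to 0.66 on the log2 scale and kept its call.

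Regulators and peptides of the gut were lower in abdomen for 9 of 16 genes and higher for 3. The summed level of the list was 251 to 426 CPM in abdomen, 744 to 1095 CPM in thorax and 2815 to 3597 CPM in head. The list as a whole was thus not particular to thorax, and how far cells outside the gut took part was not tested. GATAe, a transcription factor of the midgut, was at 9.68, 9.38 and 8.97 CPM in abdomen and 46.0, 51.9 and 51.9 CPM in thorax (log2 fold change -2.41, standard error 0.47, edgeR adjusted p = 0.000428). Pgant4, a glycosyltransferase of the proventriculus that modifies the lining of the gut, was at 5.48, 2.49 and 3.47 CPM and 137, 131 and 124 CPM (log2 fold change -5.10, standard error 0.26, edgeR adjusted p = 3.33e-09). The peptide genes Tk, Dh31 and AstA, used by enteroendocrine cells and by neurons, had log2 fold changes of -3.65, -4.10 and -3.55, and those of Dh31 and AstA were -4.94 and -4.34 without abdomen replicate 1. mex1, a marker of the absorptive cells of the gut, was at 5.66, 1.92 and 3.23 CPM and 8.48, 8.08 and 13.2 CPM and did not pass (edgeR adjusted p = 0.13). It did pass when only abdomen and thorax were fitted (edgeR adjusted p = 0.0174). With RPKM values it passed too (limma adjusted p = 0.00123 or 6.68e-05, with 0.1 or 1 added). Of the genes that were higher in abdomen, cad, a regulator of the hind part of the gut that is also loaded into the egg, was at 86.7, 193 and 194 CPM against 4.53, 3.11 and 2.50 CPM but at 221 CPM in ovary. yin, a peptide transporter, was likewise at 115 CPM in abdomen and 366 CPM in ovary. byn, a regulator of the hindgut, averaged 2.41 CPM in abdomen and 0.563 CPM in thorax (log2 fold change 2.16, standard error 0.90, edgeR adjusted p = 0.0445). Its call was lost without abdomen replicate 1 or 3 or thorax replicate 1 or 2, with values from 1.63 to 2.26, and its value was 3.02 without thorax replicate 3.

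Genes of the Malpighian tubules, the renal organ, had overlapping summed levels in the segments, 222 to 275 CPM in abdomen and 214 to 271 CPM in thorax, although 8 of 14 were higher in abdomen and 3 lower. With RPKM values 5 were higher and 5 lower. Uro, urate oxidase, the enzyme most confined to this organ, was at 36.4, 32.9 and 18.3 CPM in abdomen and 13.9, 3.31 and 7.77 CPM in thorax (log2 fold change 1.81, standard error 0.47, edgeR adjusted p = 0.00371), and its log2 fold change was 2.44 without thorax replicate 1. Smvt, a vitamin transporter gene, was at 41.1, 31.6 and 20.9 CPM and 5.20, 2.04 and 2.78 CPM (log2 fold change 3.21, standard error 0.43, edgeR adjusted p = 1.53e-05). ZnT35C, a zinc transporter, was at 17.6, 24.5 and 29.2 CPM and 3.18, 3.02 and 1.67 CPM but at 55.4 CPM in ovary. The 3 lower genes were ry, xanthine dehydrogenase, Irk2, a potassium channel, and the transcription factor tio, with log2 fold changes of -1.80, -1.64 and -5.61.

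**Figure D2:**
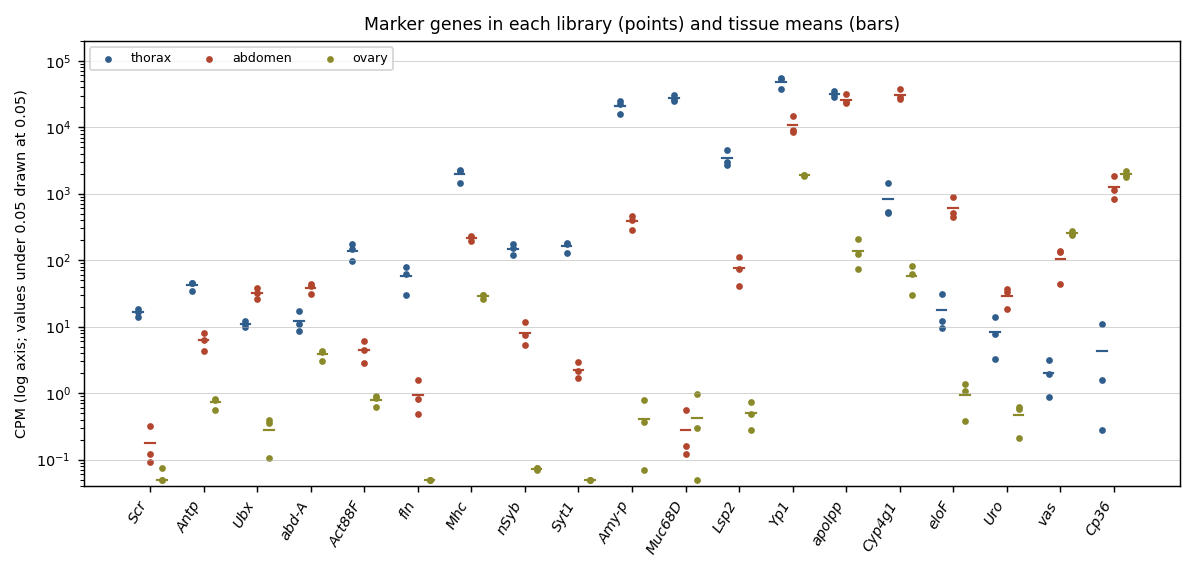
CPM on a log axis for marker genes of segment identity, muscle, neurons, gut, fat body, oenocytes, Malpighian tubule and ovary in the 3 thorax, 3 abdomen and 3 ovary libraries (points), with tissue means as bars and values under 0.05 drawn at 0.05. Thorax lies above abdomen for the muscle genes, the neuronal genes nSyb and Syt1, the amylase gene Amy-p and the mucin gene Muc68D. In the digestive enzyme list as a whole, 10 of 45 tested genes were higher in abdomen. Of the fat body genes drawn, Lsp2 and Yp1 are higher in thorax and apolpp overlaps. Abdomen lies above thorax for Cyp4g1, eloF, Uro, vas and Cp36. The ovary mean lies above the abdomen mean for vas and Cp36 but not for Cyp4g1 or eloF.

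Genes of the appendages and of the body wall of the thorax were lower in abdomen for 16 of 18 members, with a median of -2.47. The summed level of the list was 261 to 386 CPM in abdomen, 1297 to 1439 CPM in thorax and 1547 to 1832 CPM in head. The list as a whole was thus not particular to thorax. The members with the largest difference were the neighbouring homeobox genes ara and caup of the Iroquois complex, which pattern the back of the thorax and the wing veins. caup was at 0.0913, 0.241 and 0.359 CPM in abdomen and 108, 136 and 117 CPM in thorax (log2 fold change -9.05, standard error 0.31, edgeR adjusted p = 4.75e-10). ara was at 0, 0 and 0.12 CPM and 26.2, 28.8 and 25.3 CPM. hth, a Hox cofactor also active in the base of the appendages, was at 30.9, 48.6 and 49.7 CPM and 434, 489 and 482 CPM (log2 fold change -3.44, standard error 0.25, edgeR adjusted p = 4.64e-08). Not every gene of the list was far apart: sd, the DNA-binding partner of the wing selector protein Vestigial, had a log2 fold change of -0.85 and ap, a wing selector gene, one of -0.38. The call of ap was lost without abdomen replicate 3 (-0.28) and without thorax replicate 1 (-0.37) or 2 (-0.35), and neither sd nor ap was called with library size alone.

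The tracheal list, genes that build and line the airways, was lower in abdomen for 9 of 11 genes, with a median of -1.88. Its summed level was 166 to 239 CPM in abdomen, 541 to 696 CPM in thorax and 731 to 913 CPM in head. trh, which specifies tracheal cells, was at 3.29, 2.57 and 2.63 CPM in abdomen and 32.8, 35.4 and 31.1 CPM in thorax (log2 fold change -3.54, standard error 0.18, edgeR adjusted p = 3.33e-09). dysf, which acts where tracheal branches fuse, was at 0.548, 0.642 and 0.837 CPM and 23.0, 25.1 and 25.8 CPM (log2 fold change -5.20, standard error 0.30, edgeR adjusted p = 6.73e-09). Neither gene showed any overlap between the segments, as for 36.9% of all genes in this direction. Sense organs of legs and wings gave no single direction, with 2 higher and 3 lower of 11 tested chordotonal genes, and 4 higher and 4 lower of 13 tested chemosensory genes. rempA, a transport protein of cilia, was the only one of these genes above 20 CPM on average in a segment. The list of heart and nephrocyte genes had 0 members higher and 4 lower of 7, among them sns, a junction protein of nephrocytes, and tup, a cardiac transcription factor.

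Enzymes that colour and harden the cuticle were lower in abdomen for 14 of 20 genes and higher for 5. ple, tyrosine hydroxylase, the first enzyme towards dopamine and melanin, was at 6.48, 7.78 and 7.65 CPM in abdomen and 376, 387 and 338 CPM in thorax (log2 fold change -5.65, standard error 0.20, edgeR adjusted p = 4.75e-10). b (black), which makes the beta-alanine used for tan cuticle, was at 1.55, 1.76 and 2.87 CPM and 103, 100.5 and 57.2 CPM (log2 fold change -5.43, standard error 0.29, edgeR adjusted p = 3.8e-09). speck, an arylalkylamine N-acetyltransferase, was at 8.40, 4.65 and 4.54 CPM and 152, 152 and 103 CPM (log2 fold change -4.52, standard error 0.26, edgeR adjusted p = 7.67e-09). ple and b are also used by neurons and glia, whose genes moved in the same direction, and the part of those cells in this result was not tested. Among the higher genes yellow-g and yellow-g2 belong to the eggshell: yellow-g2 was at 76.2, 240.2 and 194 CPM in abdomen, 3.08, 0.487 and 0.416 CPM in thorax and 276, 232 and 281 CPM in ovary.

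Structural cuticle proteins were mostly low at this age. Of 124 genes, 43 passed the filter on low counts, 12 of them higher in abdomen and 15 lower, an order that turned with library size alone, with no filter and without abdomen replicate 2 or 3. Cpr49Ab stood out, at 596, 233 and 285 CPM in abdomen and 10.0, 3.70 and 1.67 CPM in thorax (log2 fold change 6.13, standard error 0.65, edgeR adjusted p = 1.8e-06), while its level was 0.234 CPM in ovary, and its log2 fold change was 7.06 without thorax replicate 1. Acp65Aa, an adult cuticle gene, was at 5.66, 6.58 and 6.10 CPM and 0.385, 0.584 and 0.278 CPM (log2 fold change 3.82, standard error 0.51, edgeR adjusted p = 3.65e-05). Pcp was at 19.4, 7.54 and 14.7 CPM and 0.963, 0.195 and 0.833 CPM (log2 fold change 4.39, standard error 0.54, edgeR adjusted p = 6.62e-06). In these genes all abdomen libraries were above all thorax libraries, as for 34.8% of all genes tested. The Osiris proteins, which act while cuticle forms, had 0 members higher and 3 lower of 7 tested, or 42.9% lower against 36.4% of all genes. Lcp65Ag2 was called higher (log2 fold change 3.67, standard error 1.13, edgeR adjusted p = 0.0101) on the strength of 1 library, since it was at 117, 2.97 and 2.39 CPM in abdomen and 4.43, 3.41 and 1.53 CPM in thorax, and its log2 fold change was -0.24 without abdomen replicate 1 and 4.30 without abdomen replicate 3. Lcp65Ag1 and Lcp65Ag3, which lie beside it in the same cluster and could share its reads, had the same pattern, and without that library 6 members were higher. Towards thorax, Cpr66D was at 1.73, 0.962 and 2.03 CPM in abdomen and 27.8, 23.1 and 22.1 CPM in thorax (log2 fold change -3.98, standard error 0.27, edgeR adjusted p = 3.17e-08).

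Oenocyte genes were high in abdomen and low in ovary. Of 14 genes 9 were higher in abdomen, where 35.7% of all genes tested were, and 2 lower, at a median log2 fold change of 3.22. Their summed level was 32342 to 45609 CPM in abdomen, 2992 to 4427 CPM in thorax and 627 to 722 CPM in ovary. Cyp4g1, the cytochrome P450 that turns aldehydes into cuticular hydrocarbons, was at 37036, 26713 and 28062 CPM in abdomen and 1457, 521 and 534 CPM in thorax (log2 fold change 5.19, standard error 0.48, edgeR adjusted p = 4.64e-07) and was the gene with the most reads in abdomen replicates 1 and 2. eloF, an elongase of female pheromone synthesis, was at 894, 441 and 507 CPM and 30.7, 9.54 and 12.2 CPM (log2 fold change 5.12, standard error 0.54, edgeR adjusted p = 1.58e-06). Fad2, the desaturase also known as desatF that makes female dienes, was at 1721, 909.8 and 994 CPM and 77.1, 23.2 and 33.7 CPM (log2 fold change 4.76, standard error 0.58, edgeR adjusted p = 5.92e-06). FASN3, a fatty acid synthase, was at 1569, 1237 and 1572 CPM and 142, 38.9 and 57.9 CPM (log2 fold change 4.19, standard error 0.45, edgeR adjusted p = 2.11e-06). Every abdomen library lay far above every thorax library for these 4 genes. Without thorax replicate 1 the log2 fold changes of Cyp4g1, eloF, Fad2 and FASN3 were 5.86, 5.82, 5.41 and 4.92. Per length, by the mean RPKM of the authors' table, Cyp4g1 stood at 3686 in abdomen, Fad2 at 252, eloF at 180.0 and FASN3 at 55.3.

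FASN2, the reductase gene FarO, the elongase gene CG6660, Desat2 and Cpr completed the higher members, with log2 fold changes of 2.46, 4.09, 4.44, 3.98 and 0.97. Cpr, the reductase that passes electrons to all microsomal P450s, differed least, at 756, 513 and 514 CPM against 372, 292 and 246 CPM, and was not called with RPKM values. Thorax replicate 1 was the highest thorax library for all 9 higher genes, and without it CG6660 was at 5.05 on the log2 scale. Desat2, with 94 reads in abdomen and 5 in thorax, was at 2.92 without abdomen replicate 1 and at 3.36 without thorax replicate 2. The lower members were svp, a nuclear receptor that is needed for oenocytes in the embryo and is used in other tissues too, at 41.4, 32.6 and 33.0 CPM in abdomen and 136, 135 and 140.3 CPM in thorax (log2 fold change -1.94, standard error 0.17, edgeR adjusted p = 2.94e-07), and bond, an elongase, at 28.2, 31.7 and 39.3 CPM and 80.9, 79.1 and 67.6 CPM (log2 fold change -1.20, standard error 0.16, edgeR adjusted p = 1.75e-05). Of the 9 higher members 8 were low in ovary, below 0.1 of their abdomen level.

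The cytochrome P450s as a family did not follow their member Cyp4g1. Of 77 tested P450 genes, enzymes of hormone, lipid and toxin metabolism, 20 were higher in abdomen and 38 lower, with a median of -0.64. Cyp4g1 is counted among the 77 and the 20. These are 26.0% and 49.4%, against 35.7% and 36.4% of all genes tested. Cyp6a8 was at 264, 153 and 249 CPM in abdomen and 66.6, 53.3 and 26.1 CPM in thorax (log2 fold change 2.18, standard error 0.34, edgeR adjusted p = 5.87e-05). Cyp6a18 was at 25.5, 36.4 and 28.5 CPM and 2.02, 0.779 and 2.78 CPM (log2 fold change 4.06, standard error 0.62, edgeR adjusted p = 5.35e-05). Cyp28d1 was at 49.9, 32.5 and 46.5 CPM and 268, 249 and 218 CPM, in the direction of thorax (log2 fold change -2.51, standard error 0.23, edgeR adjusted p = 3.78e-07). A higher gene that the ovary shared was Cyp6a19, at 119, 149 and 144 CPM in abdomen, 5.11, 4.67 and 4.16 CPM in thorax and 371, 380.2 and 419 CPM in ovary. For the Ugt and Gst genes of detoxification the counts were 17 higher (27.9%) and 26 lower (42.6%) of 61, a majority that turned with library size alone. RPKM values left 8 or 7 higher P450 genes and 7 or 8 higher Ugt and Gst genes, with 0.1 or 1 added.

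Fat body products were mostly more abundant in the thorax libraries. Of 25 genes for secreted proteins 17 were lower in abdomen and 3 higher, with a median of -1.30. Yp1, which encodes a yolk protein that the fat body of females exports to the ovary, was at 14752, 9056 and 8521 CPM in abdomen and 52376, 54971 and 37165 CPM in thorax (log2 fold change -2.16, standard error 0.26, edgeR adjusted p = 4.76e-06), while Yp3 was at 21978, 11885 and 14646 CPM and 34533, 37722 and 23137 CPM (log2 fold change -0.98, standard error 0.26, edgeR adjusted p = 0.00384). Yp2 had a log2 fold change of -1.40, and in head Yp1 averaged 43725 CPM. Lsp2, a storage protein of the larva and adult, was at 73.8, 41.4 and 112 CPM and 3007, 4489 and 2734 CPM (log2 fold change -5.50, standard error 0.41, edgeR adjusted p = 7.15e-08). Lsp1beta was at 52.1, 32.2 and 57.6 CPM and 2118, 2241 and 1054 CPM (log2 fold change -5.26, standard error 0.41, edgeR adjusted p = 9.32e-08). These storage protein genes differed far more than the yolk protein genes. apolpp, the precursor of the main lipoprotein of the hemolymph, did not pass the test, at 23960.5, 22891 and 31449 CPM and 28751, 35095 and 31479 CPM (log2 fold change -0.28, edgeR adjusted p = 0.411), and its value was 0.091 with library size alone. Tsf1, transferrin (-1.47), and to, takeout, a carrier protein tied to feeding (-5.98, and -7.12 without abdomen replicate 1), were also lower.

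The 3 secreted fat body genes that were higher in abdomen were PGRP-SA, a receptor that senses Gram-positive bacteria, at 44.6, 18.8 and 30.5 CPM against 10.3, 13.7 and 18.9 CPM (log2 fold change 1.14, standard error 0.30, edgeR adjusted p = 0.00348), its partner GNBP1 (1.04) and CCHa2, a peptide hormone that signals nutrition (0.59). None of them was called with RPKM values. The call of CCHa2 was lost without abdomen replicate 1 (0.26) and without thorax replicate 1 (0.54) or 2 (0.56) and in the fit with the replicate block, and its direction turned to -0.14 with RPKM values. Lipid genes were divided, with 5 higher and 5 lower of 19. FASN1, the main fatty acid synthase, was at 2808, 2989 and 3292 CPM in abdomen and 7494, 7633 and 6165 CPM in thorax (log2 fold change -1.23, standard error 0.18, edgeR adjusted p = 2.83e-05). SREBP, which controls lipid synthesis, and Lpin, which makes diacylglycerol, had log2 fold changes of -1.30 and -1.07. The 5 higher genes included bmm, the main triglyceride lipase, and Dgat2 and Agpat2, enzymes of triglyceride synthesis, at 0.73, 2.34 and 1.50.

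Sugar storage genes had 4 members higher and 3 lower of 10, an order that did not hold with DESeq2, upper quartile factors, RLE factors, RPKM values, or without abdomen replicate 1 or thorax replicate 3. Pgm1, phosphoglucomutase, was at 1133, 604 and 643 CPM in abdomen and 359, 334 and 289.8 CPM in thorax (log2 fold change 1.28, standard error 0.23, edgeR adjusted p = 0.000208). UGP, which makes UDP-glucose, was also higher (log2 fold change 0.82, standard error 0.22, edgeR adjusted p = 0.00421). For Tps1, which makes trehalose, the blood sugar of the fly, the values were 1484, 852 and 938 CPM and 667, 614 and 502 CPM (log2 fold change 0.88, standard error 0.35, edgeR adjusted p = 0.0381). Its call was lost without abdomen replicate 1 (0.59) or without any one thorax replicate, where its value was at least 0.77. Amino acid and one-carbon genes were even, at 7 higher and 7 lower of 19. Gnmt, glycine N-methyltransferase of the fat body, was at 261, 182 and 441 CPM in abdomen and 40.3, 96.6 and 74.1 CPM in thorax (log2 fold change 2.07, standard error 0.49, edgeR adjusted p = 0.00184). Tat, tyrosine aminotransferase, was at 28.9, 15.4 and 17.9 CPM and 260.2, 236 and 146 CPM (log2 fold change -3.36, standard error 0.29, edgeR adjusted p = 2.77e-07).

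Blood cell markers were lower in abdomen for 8 of 15 genes. Hml, hemolectin, was at 44.4, 38.5 and 31.3 CPM in abdomen and 483, 506 and 254 CPM in thorax (log2 fold change -3.44, standard error 0.30, edgeR adjusted p = 2.34e-07). NimC1, a phagocytosis receptor, was at 1.64, 1.28 and 0.717 CPM and 29.9, 30.2 and 19.3 CPM (log2 fold change -4.41, standard error 0.30, edgeR adjusted p = 2.81e-08). Pxn, peroxidasin of the basement membrane, was at 8.40, 6.90 and 8.37 CPM and 151, 157 and 71.3 CPM (log2 fold change -4.01, standard error 0.30, edgeR adjusted p = 6.89e-08). Thorax replicate 3 had the lowest thorax value of each, still above every abdomen library. NimB1 was the exception (log2 fold change 1.10, standard error 0.35, edgeR adjusted p = 0.0119) and its call was lost without abdomen replicate 1 (0.62). Serpins, the inhibitors of blood proteases, were lower for 11 of 17 tested genes and higher for 2.

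Antimicrobial peptide genes, which the fat body switches on during infection, depended on 1 thorax library. Of 22 genes 4 were called higher in abdomen and 4 lower, and 15 of the 22 had their highest value of the 6 libraries in thorax replicate 3. Dro, drosocin, was at 38.0, 54.9 and 47.7 CPM in abdomen and 23.3, 31.0 and 2024 CPM in thorax (log2 fold change -3.88, standard error 1.24, edgeR adjusted p = 0.0125). DptA, diptericin, was at 18.1, 20.6 and 9.32 CPM and 5.49, 5.55 and 452 CPM (log2 fold change -3.25, standard error 1.35, edgeR adjusted p = 0.0443). AttC, attacin, was at 190.5, 222 and 269 CPM and 65.4, 71.4 and 1079.8 CPM (edgeR adjusted p = 0.372). In each of them thorax replicates 1 and 2 lay below all 3 abdomen libraries and replicate 3 lay above. Without thorax replicate 3 the counts were 15 higher and 1 lower, and the log2 fold changes became 0.79 for Dro, 1.55 for DptA, 1.73 for AttC, 1.05 for Mtk (metchnikowin) and 1.40 for AttA, where they had been -3.88, -3.25, -0.84, -1.05 and -3.21. Among these, Dro (edgeR adjusted p = 0.0732) and DptA (edgeR adjusted p = 0.134) were not called without that library. The 1 lower gene was then Drsl5, at -1.04. The 4 lower genes of the full fit were Dro, DptA, AttA and CecC, a cecropin. Dro was the only one of these 4 that kept its call whichever single abdomen library was left out, leaving out thorax replicate 1 gave 6 lower genes, and the replicate block gave 0.

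The calls that did not depend on this library were those of the Bomanins and related peptides. BomS2 was at 393, 290.1 and 143 CPM in abdomen and 31.5, 23.7 and 42.6 CPM in thorax (log2 fold change 3.08, standard error 0.37, edgeR adjusted p = 5.9e-06). Dso1 was at 1560.5, 1321 and 1476 CPM and 525, 473 and 659.8 CPM (log2 fold change 1.39, standard error 0.28, edgeR adjusted p = 0.000531). BaraA2 and BomS1 had log2 fold changes of 1.11 and 1.74. With thorax replicate 3 left out these 4 values were 3.32, 1.54, 1.47 and 2.38. With RPKM values 2 of the 22 genes were called higher. No gene of the list averaged more than 4.58 CPM in ovary.

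**Figure D3:**
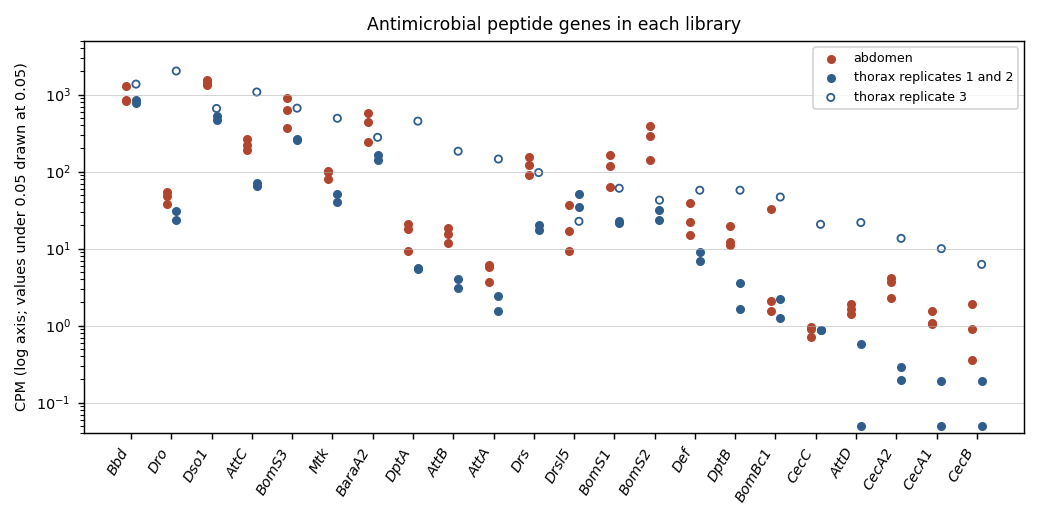
CPM on a log axis for the 22 antimicrobial peptide genes in the 3 abdomen libraries (filled red), thorax replicates 1 and 2 (filled blue) and thorax replicate 3 (open blue). The points of thorax replicate 3 are the highest of the 6 libraries in 15 genes, and for Dro, AttC and DptA they lie above the abdomen while the other thorax points lie below it.

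To separate the ovary, each gene that was higher in abdomen was classed by its level in the ovary libraries. Genes whose mean ovary CPM was at least their mean abdomen CPM were called also abundant in ovary, those below 0.1 of it low in ovary, and those between intermediate. Of the 3999 higher genes 2374 (59.4%) were also abundant in ovary, 1230 (30.8%) intermediate and 395 (9.88%) low in ovary, and among all 11188 genes tested 50.5% and 17.9% fell in the first and last class. Since the class uses the abdomen level, these shares are descriptions. The genes low in ovary had a median log2 fold change of 2.50 and those abundant in ovary one of 1.38. The fold change holds the abdomen level as well, so a difference in this direction is partly built into the classes and is also a description. Setting the limit at 0.5 of the abdomen level gave 3216 abundant genes, at 20 CPM 2756, by the test of ovary against abdomen 2879 and by the authors' RPKM 3487, of which the last left 282 genes low in ovary.

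Abdomen replicate 1 took opposite places in the classes. It was the highest abdomen library for 342 of the 395 genes low in ovary (86.6%) and the lowest for 1447 of the 2374 genes abundant in ovary (61.0%). The mean abdomen level that sets the class includes this library. These places are therefore partly built into the classes, and the counts are descriptions. With that library left out of both the fit and the levels, 2626 higher genes were abundant and 317 low in ovary. How far organs or cells that were left in the abdomen to a different degree in each library took part in this was not tested.

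**Figure D4:**
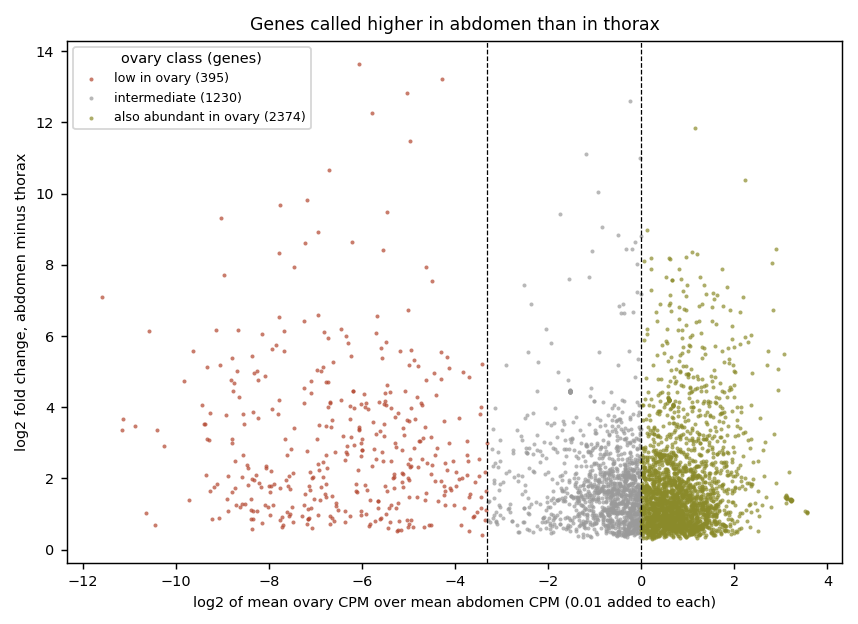
Genes called higher in abdomen than in thorax, with the log2 ratio of mean ovary to mean abdomen CPM on the x axis and the log2 fold change of abdomen over thorax on the y axis. Dashed lines mark an ovary level equal to the abdomen level and 0.1 of it, and colours show the 395 genes low in ovary, the 1230 intermediate and the 2374 abundant ones. Genes low in ovary, at the left, have a median log2 fold change of 2.50 and genes abundant in ovary, at the right, one of 1.38. Both axes hold the abdomen level, so this difference is partly built in.

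Of the 395 genes low in ovary 242 (61.3%) carry only a CG number, against 722 of the 2374 genes abundant in ovary (30.4%). The share over all genes tested is not given here, so neither value is read as a departure from it. Among the 395 were 4 members of the female reproductive tract list, and the tissue their reads came from was not tested. Send1, a serine protease of the spermathecae, which store sperm, was at 72.0, 6.02 and 24.4 CPM in abdomen and had no read in thorax, so that it was at least 312-fold higher in abdomen. This bound was 124-fold without abdomen replicate 1, 477-fold without abdomen replicate 2 and 196-fold or 197-fold without thorax replicate 1 or 2. CG32834, a serine protease gene of the same list, was at 92.4, 28.9 and 49.3 CPM and 0, 0.0973 and 0.139 CPM, a CPM ratio of 782-fold (exact 95% interval 216 to 6460.5). CG17239 was at 16.5, 3.21 and 5.38 CPM against 0, 0.0973 and 0.139 CPM and Ser12 at 5.11, 2.01 and 2.87 CPM against 0.193, 0 and 0.139 CPM, with ratios of 117-fold (exact 95% interval 32 to 968) and 30.7-fold (exact 95% interval 10.2 to 151). All 4 were highest in abdomen replicate 1 and lowest in abdomen replicate 2. Without abdomen replicate 1 the ratios of CG32834 and CG17239 were 516-fold (142 to 4269.6) and 56.8-fold (15.3 to 477). Without thorax replicate 1 those of CG32834, CG17239 and Ser12 were 490.5-fold (136 to 4053), 73.1-fold (20 to 607) and 57.7-fold (10.1 to 2302), and that of Ser12 was 19.4-fold (6.45 to 95.4) without thorax replicate 2.

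In the whole list of the reproductive tract 4 of 9 tested genes were higher and 3 lower, an order that turned with RLE factors and with RPKM values with 0.1 added. The summed level of the list overlapped between the segments, at 140 to 279 CPM in abdomen and 214 to 223 CPM in thorax. The lower ones, dsx, the sex determination gene (-0.95), Octbeta2R, an octopamine receptor that acts in ovulation (-3.76), and lz, which is needed to form spermathecae and also acts in blood and eye cells (a ratio of 71.9-fold (exact 95% interval 12.4 to 2884) towards thorax, 47.1-fold (8.15 to 1890.1) without abdomen replicate 1 and at least 14.6-fold without abdomen replicate 2, which held its read), are used in other tissues as well.

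Among genes low in ovary with at least 20 CPM in abdomen, the largest differences were those of CG42705, at 167, 41.1 and 55.8 CPM in abdomen, CG42704, at 127, 32.2 and 41.2 CPM, and CG43090, at 83.5, 23.7 and 43.5 CPM. None of these had a read in thorax, and they were at least 822-fold, 625-fold and 459.8-fold higher in abdomen. Without abdomen replicate 1 these bounds were 437-fold, 333-fold and 294-fold. Without thorax replicate 1 they were 516-fold, 392-fold and 289-fold, and without thorax replicate 2 519-fold, 395-fold and 290.3-fold. CG18628 reached 341, 81.9 and 137 CPM in abdomen against 0, 0.292 and 0 CPM in thorax, a CPM ratio of 1723-fold (exact 95% interval 589 to 8358), and CG43074 reached 337, 111 and 181 CPM against 0.578, 0.584 and 0 CPM (log2 fold change 8.92, standard error 0.90, edgeR adjusted p = 1.03e-06). The ratio of CG18628 was 965-fold (329.6 to 4681) without abdomen replicate 1 and 1081-fold (369.7 to 5244) without thorax replicate 1, and without thorax replicate 2, which held its 3 thorax reads, it was at least 1088-fold higher in abdomen. CG12057, CG42521 and CG31681 completed the 10 together with Send1 and CG32834. All 10 were highest in abdomen replicate 1, as were 342 of the 395 genes low in ovary. They had ovary means of at most 3.41 CPM and head means of at most 0.739 CPM.

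Among the odorant-binding proteins, small carriers of hydrophobic molecules, 5 of 27 tested genes were higher in abdomen and 8 lower. These are 18.5% and 29.6%, against 35.7% and 36.4% of all genes tested. Obp99a was at 1197, 443 and 711 CPM in abdomen and 309, 266 and 166 CPM in thorax (log2 fold change 1.66, standard error 0.37, edgeR adjusted p = 0.00126) and Obp18a at 55.8, 25.7 and 38.7 CPM and 8.19, 5.26 and 5.41 CPM (log2 fold change 2.66, standard error 0.37, edgeR adjusted p = 2.06e-05), both low in ovary, whereas Obp19c was at 25.7, 46.9 and 25.7 CPM in abdomen, 1.73, 0.584 and 0 CPM in thorax and 116, 97.2 and 124 CPM in ovary.

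Eggshell genes had the highest median difference of the 39 lists. All 21 genes of the chorion and vitelline membrane, the layers that follicle cells lay down around the egg, were higher in abdomen than in thorax, at a median log2 fold change of 6.90, and 19 of them were also abundant in ovary. Their summed level was 8966 to 10952 CPM in abdomen, 11.8 to 127 CPM in thorax and 22114 to 23819.7 CPM in ovary. Cp36, a major chorion protein, was at 840.0, 1862 and 1142 CPM in abdomen, 11.0, 1.56 and 0.278 CPM in thorax and 1882, 1766 and 2212 CPM in ovary (log2 fold change 8.17, standard error 0.89, edgeR adjusted p = 2.19e-06). For Vm26Aa, a vitelline membrane protein, the values were 1374, 1171 and 1386 CPM in abdomen, 9.54, 1.56 and 0.278 CPM in thorax and 2876, 2829 and 2624 CPM in ovary (log2 fold change 8.37, standard error 0.75, edgeR adjusted p = 3.44e-07). Every ovary library lay above every abdomen library for Vm26Aa, whereas for Cp36 abdomen replicate 2 lay within the range of the ovary. Thorax replicate 1 was the highest thorax library for 16 of the 21 eggshell genes, and without it the log2 fold changes of Cp36 and Vm26Aa were 10.32 and 10.35. Cp15, a late chorion gene, was intermediate, at 3339, 1804 and 2280.3 CPM in abdomen and 1637, 2280.1 and 2404 CPM in ovary against 0.674, 0.195 and 0.278 CPM in thorax (log2 fold change 12.59, standard error 0.50, edgeR adjusted p = 1.03e-09, and 13.35 on the log2 scale without thorax replicate 1).

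Germline genes showed the same pattern. 26 of 30 were higher in abdomen and 4 lower, with a median of 4.57, and 25 of the higher ones were also abundant in ovary. vas, an RNA helicase of the germ plasm, was at 43.3, 132 and 136 CPM in abdomen, 3.18, 0.876 and 1.94 CPM in thorax and 279, 244 and 243 CPM in ovary (log2 fold change 5.69, standard error 0.61, edgeR adjusted p = 2.01e-06). osk, which assembles the germ plasm, was at 433, 1119 and 852 CPM in abdomen, 7.42, 2.04 and 2.08 CPM in thorax and 1201, 1100.2 and 1175 CPM in ovary (log2 fold change 7.67, standard error 0.80, edgeR adjusted p = 1.39e-06, and 8.60 on the log2 scale without thorax replicate 1). Abdomen replicate 1 was the lowest abdomen library for both. Another germline gene outside the list, dhd, the thioredoxin deadhead, was at 2499, 1824 and 1782 CPM in abdomen, 11.0, 5.65 and 3.89 CPM in thorax and 2237, 2348 and 2506 CPM in ovary (log2 fold change 8.20, standard error 0.77, edgeR adjusted p = 5.53e-07). The 4 genes lower in abdomen were tud, stau, grk and mamo, with log2 fold changes of -0.69, -0.91, -1.55 and -1.01, and their thorax means of 510.2, 228, 59.4 and 34.6 CPM lay above those in ovary of 358, 183, 18.9 and 12.9 CPM. In the genome grk overlaps Akap200 and mamo overlaps CG11068. Both could share reads with these neighbours, so the levels of grk and mamo are uncertain. The call of tud was lost without thorax replicate 2 (-0.65), tud and stau moved to -0.41 and -0.60 without abdomen replicate 1, and with library size alone 1 of the 4 was called.

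Cell division genes and small RNA genes were shared with ovary in the same way. Of 31 replication and cell cycle genes 30 were higher in abdomen and 0 lower, with a median of 3.44, and 29 of them were also abundant in ovary. CycB, a mitotic cyclin, was at 507, 1174 and 1127 CPM in abdomen, 23.5, 18.7 and 9.16 CPM in thorax and 2029.6, 1800.5 and 1885 CPM in ovary (log2 fold change 5.76, standard error 0.65, edgeR adjusted p = 2.95e-06). CycA was at 313, 549 and 499 CPM in abdomen, 6.65, 6.33 and 5.83 CPM in thorax and 875, 798 and 844 CPM in ovary (log2 fold change 6.17, standard error 0.46, edgeR adjusted p = 6.13e-08). Of the 25 piRNA pathway genes, which silence transposons and were taken as the study lists them, 21 were higher and 2 lower than in thorax, and 20 of the higher ones were also abundant in ovary. This list shares vas, aub, AGO3, rhi, tud, piwi and mael with the germline list, so these genes are counted in both. piwi was at 46.0, 115 and 109.5 CPM in abdomen, 8.57, 1.36 and 0.972 CPM in thorax and 265, 245 and 271 CPM in ovary. The lower ones were tud and ci, the effector of Hedgehog signalling (-1.44).

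Regulators of follicle cells, the somatic cells around the egg, were not higher as a group, in contrast to the eggshell genes those cells express. Of 12 genes 2 were higher and 5 lower, and most of them act in other tissues as well. ndl, a protease secreted towards the eggshell, was at 39.2, 68.4 and 67.5 CPM in abdomen, 2.02, 0.292 and 1.11 CPM in thorax and 219, 225 and 196 CPM in ovary (log2 fold change 5.66, standard error 0.62, edgeR adjusted p = 2.42e-06, and 6.49 on the log2 scale without thorax replicate 1). pip, a sulfotransferase that sets up the ventral side of the egg, was at 5.48, 8.98 and 8.13 CPM in abdomen, 1.16, 3.60 and 2.64 CPM in thorax and 8.36, 8.50 and 8.96 CPM in ovary (log2 fold change 1.61, standard error 0.50, edgeR adjusted p = 0.0104). Without abdomen replicate 1 the higher genes numbered 4.

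Among the 10 genes abundant in ovary with the largest difference, Cp16, Cp18, Cp36, Femcoat and Vm26Aa encode eggshell proteins, and dhd acts in the germline. CG31928 had no read in thorax and was at 20.4, 26.7 and 29.5 CPM in abdomen and 51.2, 60.5 and 59.9 CPM in ovary, at least 235-fold higher than in thorax, a bound that was 147-fold or 148-fold without thorax replicate 1 or 2. CG13084, CG13299 and CG14187 were the other 3, at ovary means of 219, 63.1 and 22.8 CPM. The intermediate genes with the largest difference were Cp15, the mucin-like genes Mur11Da and Muc4B, CG13083, CG14931, CG14036, CG14545, CG11381, CG12716 and CG43965. Muc4B was at 133, 627 and 438 CPM in abdomen, 1.16, 0.292 and 0.139 CPM in thorax and 132, 99.8 and 127 CPM in ovary (log2 fold change 9.44, standard error 0.71, edgeR adjusted p = 6.65e-08, and 10.73 on the log2 scale without thorax replicate 1). Mur11Da was at 28.5, 132 and 127 CPM in abdomen, 0, 0 and 0.139 CPM in thorax and 39.8, 44.3 and 41.9 CPM in ovary. In both genes abdomen replicates 2 and 3 lay above every ovary library.

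The level that ovary-abundant genes reached in abdomen differed between gene groups and between libraries. As a percentage of the mean ovary CPM, the median of the 2374 genes was 51.1, 62.9 and 60.8% in abdomen replicates 1, 2 and 3, and 21.9, 21.6 and 20.5% in the thorax replicates. The eggshell genes stood at 19.4, 31.2 and 28.9%, the germline genes at 28.8, 51.8 and 50.6% and the cell cycle genes at 33.2, 51.7 and 45.5%, and in thorax each of these groups was below 4%. Abdomen replicate 1 was the lowest abdomen library for these 3 groups. The percentages depend on the scaling, since by the authors' RPKM the 2374 genes stood at a median of 15.6% and the eggshell genes at 6.79%. They are no shares of tissue, and how much ovarian material took part in them was not tested.

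**Figure D5:**
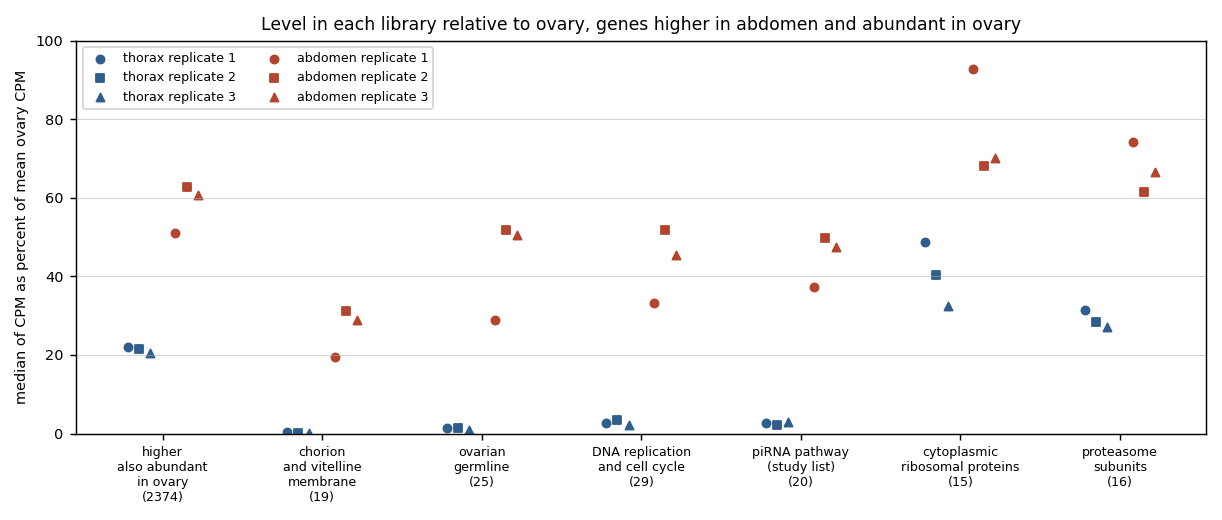
Median level of genes that were higher in abdomen and abundant in ovary, as a percentage of their mean ovary CPM, for all 2374 genes and for 6 gene lists (gene numbers in brackets), in the 3 thorax (blue) and 3 abdomen (red) libraries. The abdomen libraries sit at 51.1, 62.9 and 60.8% over all genes and at 19.4, 31.2 and 28.9% for the eggshell genes, and abdomen replicate 1 (circles) is the lowest of the 3 for the eggshell, germline and cell cycle genes and the highest for the ribosomal proteins and proteasome subunits.

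Genes of protein synthesis and turnover were also higher in abdomen, with another pattern over the libraries. Of 85 cytoplasmic ribosomal protein genes 68 were higher and 2 lower, with a median of 1.41, and 65 of the 68 were highest in abdomen replicate 1, unlike the germline genes. RpL41 was at 5742, 3900.3 and 3763 CPM in abdomen, 519, 340.0 and 295 CPM in thorax and 1979.8, 2085 and 2113 CPM in ovary (log2 fold change 3.54, standard error 0.28, edgeR adjusted p = 9.66e-08). RpL5 was at 6168, 4809 and 4549.9 CPM in abdomen, 1449, 1283 and 1115 CPM in thorax and 1869, 2049 and 2171 CPM in ovary (log2 fold change 2.01, standard error 0.20, edgeR adjusted p = 8.71e-07). Most of these genes, 53 of the 68, were intermediate, with less in ovary than in abdomen. RpL4 and RpL22 were lower (-0.53 and -0.77), the call of RpL4 was lost without abdomen replicate 3 (-0.40), and with library size alone neither was called. RPKM values left 44 or 43 higher and 11 or 12 lower, with 0.1 or 1 added.

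Subunits of the proteasome, which degrades tagged proteins, were higher in abdomen for 27 of 36 tested genes and lower for 3, with a median of 1.32. Prosalpha6 was at 361, 295 and 293 CPM in abdomen, 49.3, 46.0 and 38.3 CPM in thorax and 157, 170.4 and 188 CPM in ovary (log2 fold change 2.83, standard error 0.17, edgeR adjusted p = 9.63e-09). Rpn5, a lid subunit, was at 269.5, 498 and 509 CPM in abdomen, 102, 86.3 and 93.3 CPM in thorax and 244, 231 and 246 CPM in ovary (log2 fold change 2.18, standard error 0.22, edgeR adjusted p = 1.05e-06). Prosalpha1 and Prosalpha1R had nearly equal counts and could share reads. The lower genes were Rpn1 (-0.55), Rpt4 (-0.36) and Rpn13R (a ratio of 8.56-fold (exact 95% interval 1.99 to 77.1) towards thorax, 5.61-fold (1.30 to 50.5) and 5.20-fold (1.21 to 46.9) without abdomen replicates 1 and 2 and at least 4.20-fold without abdomen replicate 3, which held its 2 reads), of which none was called with library size alone, where Rpt4 turned to 0.013. The call of Rpt4 was lost without any one library except thorax replicate 2 (values from -0.29 to -0.36), and that of Rpn13R without abdomen replicate 1 (edgeR adjusted p = 0.0858) or 2 (edgeR adjusted p = 0.104) or thorax replicate 1 (edgeR adjusted p = 0.0599).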

How the data were processed

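Total RNA of the 6 libraries, and of 3 head and 3 ovary libraries of the same strain, was depleted of ribosomal RNA and sequenced. Per the submitters' processing notes and the study's methods, the authors removed adapters (cutadapt), aligned reads to genome build dm3 with TopHat2 2.0.10 and counted them per gene with easyRNASeq; whether strand was used is not given in the sources used here. The authors deposited 2 tables, raw read counts per gene and RPKM (reads per kilobase and library depth), calculated with easyRNASeq. The authors' own edgeR fit corrected for batches that are not named, so none was used here.

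Counts of 4 tissues with 3 libraries each were fitted in 1 model without covariates (edgeR 4.0.16 in R 4.3.3, quasi-likelihood test, TMM factors, genes kept by filterByExpr, 2-sided, Benjamini-Hochberg), so that they share 1 estimate of spread. The methods call the libraries independent biological replicates. Ratios with 1 to 3 reads in a segment carry an exact 95% interval, and a segment without reads was set to a floor of 3 reads over its libraries. Both cover counting error only. Alternatives used DESeq2 1.42.0 and limma 3.58.1 on log2 of RPKM plus 0.1 or 1, other scalings and filters, a replicate block and each library left out, of which TMM over the genes kept and the levels without abdomen replicate 1 were chosen after seeing the data. Tables were made with pandas 2.3.3 and figures with matplotlib 3.10.9 in Python 3.11.15. The fit was tested on simulated data.

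Gene lists and the lists of members were chosen with earlier results of these data known, and were edited once the tables were at hand (1 wrong match and the cyclophilins were removed), so no test was run on a list. Named genes were, with at least 20 CPM in the higher segment, an adjusted p under 0.05 and no overlap, the 10 with the largest change towards abdomen in each ovary class and the 15 towards thorax, the 4 to 8 most abundant members of each list, members called against their list's majority and the 5 segment identity genes. Trhn, mex1, Tk, Dh31, to, NimC1, BomS1, DptA, AttA, CecC, FarO, CG6660 and Desat2 were chosen after their values were seen, as were bmm, Dgat2, Agpat2 and Drsl5. Among the named genes 75 of 225 overlap another gene of the table in Release 6 of the genome and could share reads with it. Jon99Cii and Jon99Ciii, Amy-p and Amy-d, Lcp65Ag1 to Lcp65Ag3, and Prosalpha1 and Prosalpha1R are close copies of each other, and Obp57d and Cpr57A had identical counts, so their values are uncertain.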

Additional observations from a re-analysis of the deposited data

How the results depend on the processing

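Of 17 alternatives, the RPKM values moved the count of higher genes most. With limma on RPKM values 2221 genes (0.1 added) or 2269 (1 added) were higher in abdomen, of which 1226 or 1274 were also abundant in ovary, and with 1 added 263 were low in ovary. Leaving out 1 library gave 3774 to 4181 higher and 3762 to 4123 lower genes, 2189 to 2639 higher genes abundant and 326 to 431 low in ovary, and 9 to 15 lists with more higher and 23 to 27 with more lower members. The fit with a replicate block gave 3912 higher and 3992 lower genes. The count of lower genes was 3118 when only abdomen and thorax were fitted and 3181 with library size alone. It was 4841 with DESeq2 and 5438 or 5196 with RPKM values, with 0.1 or 1 added. Same-numbered libraries correlated at 0.109, 0.053 and 0.018 in their deviations from the tissue means, and abdomen replicate 3 correlated better with thorax replicate 2, so the numbers were not taken as pairs.

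With library size alone Abd-B turned to 0.14, Trhn to 0.33, nAChRalpha4 to 0.023, apolpp to 0.091 and Rpt4 to 0.013, and Trhn was 0.12 when only abdomen and thorax were fitted. Act5C, cpa, Idh and CCHa2 turned to -0.088, -0.19, -0.11 and -0.14 with RPKM and 0.1 added and to -0.088, -0.18, -0.11 and -0.14 with 1 added. With 1 library left out Lcp65Ag1, Lcp65Ag2 and Lcp65Ag3 ranged from -0.68, -0.24 and -0.63 (without abdomen replicate 1) to 4.11, 4.30 and 4.0, and Trhn from -1.26 to 0.40, positive without abdomen replicate 2 or 3 or thorax replicate 3. Without thorax replicate 3 nAChRalpha4 was 0.048, Dro 0.79, AttC 1.73, Mtk 1.05, DptA 1.55 and AttA 1.40, and the lowest values with another library left out were -0.59, -4.45, -1.34, -1.53, -3.82 and -3.80. The glycogen and trehalose list had 3 higher members with DESeq2, upper quartile and RLE factors and without abdomen replicate 1 or thorax replicate 3, and 0 with RPKM values. Cuticle proteins had 12 lower members with library size alone, 16 with no filter and 12 to 20 with 1 library left out, falling to 12 and 13 without abdomen replicates 2 and 3. The Ugt and Gst list had 18 lower members with library size alone, and the reproductive tract list had 4 higher members with RLE factors and with RPKM and 0.1 added. The cause of these turns was not tested. The search of promoters for motifs was not run. Of the 13898 genes, 2710 had too few counts to be tested at this depth.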
